A study of Mus musculus with 19 samples.

Results

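The genes described here are 48 genes of the endoplasmic reticulum (ER) whose products fold, modify and move secreted and membrane proteins. They were chosen by name and found by an exact match of the gene symbol. All 48 were present among the 14290 genes with values in a set of stimulated regulatory T cells (Tregs) and among the 14818 genes of a set of freshly sorted Tregs. By role they were 11 chaperones and cochaperones, 4 disulfide isomerases, 4 sensors and effectors of the unfolded protein response, 6 genes of ER-associated degradation and 8 translocon and signal peptidase genes. A further 8 genes assemble the lipid-linked glycan, 6 encode subunits of the oligosaccharyltransferase, and Rcn3 encodes an ER calcium-binding protein, reticulocalbin 3.

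Proteins bound for the cell surface or for secretion are threaded into the ER through the Sec61 translocon, lose their signal peptide, receive a preassembled glycan from the oligosaccharyltransferase and fold with the help of chaperones and disulfide isomerases. When unfolded protein builds up, the sensors IRE1 (encoded by Ern1), PERK (Eif2ak3) and ATF6 start the unfolded protein response: IRE1 splices the Xbp1 mRNA, PERK slows translation and favours that of ATF4, and ATF6 is cleaved into a transcription factor. Many chaperone genes are known targets of ATF6 and XBP1, and T cells are known to enlarge this machinery when they are activated.

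RNA sequencing covered 19 libraries of YFP-positive Tregs from C57Bl/6 mice in which Foxp3 drives Cre recombinase and YFP, an allele that all groups carried, controls included. In the stimulated set, cells spent 16 hours on plates coated with anti-CD3 (5 ug/mL), with soluble anti-CD28 (1 ug/mL) and interleukin 2 (10 ng/mL). Its 3 groups of 2 libraries were wild-type (WT) cells with pentoxifylline (PTXF, 500 ug/mL), a phosphodiesterase inhibitor, cells labelled c-Rel-deficient (c-Rel F/F), and WT cells with the water diluent. In the sorted set, cells from spleen and lymph nodes were separated without culture into activated Tregs (aTregs, CD44 high) and resting Tregs (rTregs, CD44 low) by surface markers that include CD44. It held 2 aTreg and 2 rTreg libraries labelled p65-deficient (p65 F/F), 2 and 2 labelled c-Rel-deficient, and 3 aTreg and 2 rTreg WT libraries. Rela encodes p65 and Rel encodes c-Rel, both DNA-binding subunits of NF-kB, and the floxed alleles are removed where Foxp3 is active. The labels do not say whether replicates came from separate mice, so p-values measure the spread between these libraries, which may be technical where a group's replicates share their source.

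The targeted gene did not match every label. Rel was at 2.44 and 25.0 RPKM in stimulated libraries 1 and 2 labelled c-Rel-deficient, against 55.1 and 55.8 RPKM with water, and in the sorted set at 1.39 to 5.37 RPKM in the c-Rel-labelled libraries, against 10.9 to 22.0 RPKM in WT. Rela was at 46.8 and 56.1 RPKM in p65-labelled aTregs, against 62.3 to 68.3 RPKM in WT aTregs, and at 69.4 and 59.9 RPKM in p65-labelled rTregs, against 71.5 and 69.0 RPKM in WT rTregs; whether these values cover the deleted exons is not known. Xist and Ddx3y, looked up after their values had been seen, separated replicates of the stimulated WT groups: Xist was at 0.0096 and 22.3 RPKM in PTXF libraries 1 and 2, at 0.011 and 0.021 RPKM in the c-Rel-labelled libraries and at 0.015 and 18.7 RPKM in water libraries 1 and 2. Ddx3y was at 39.7 and 6.33 RPKM with PTXF, 23.7 and 27.7 RPKM for the c-Rel label and 27.8 and 2.73 RPKM with water. Replicates 1 and 2 of these WT groups therefore did not have the same source animals. In both transcripts the c-Rel-labelled libraries resembled only the WT libraries numbered 1, so their comparison with water is uneven in them. Among sorted libraries, the second c-Rel-labelled rTreg library had Foxp3 at 28.1 RPKM, against 73.6 RPKM in the first. Relative depth in the stimulated set, read from the steps between low values, was 0.793 and 0.682 with PTXF, 0.915 and 0.853 for the c-Rel label and 0.949 in water library 2, each relative to water library 1, and depth in the sorted set, where values had been adjusted, is unknown.

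The ER genes ranged from among the strongest transcripts to nearly silent ones. Levels are in RPKM, read counts scaled to gene length and library size, so genes are compared per length. Calr, a lectin chaperone that binds glucose-tagged glycoproteins and calcium, was the highest member in all 3 stimulated groups, with 253 ± 70.2 RPKM with PTXF, 637 ± 15.3 RPKM for the c-Rel label and 592 ± 131 RPKM with water (SD, n = 2 each). Hspa5, which encodes BiP, the central HSP70 of the ER, and Pdia3, a disulfide isomerase that partners with calreticulin, followed it. In the sorted set the same 3 genes led in each of the 6 groups, with Pdia3 at 329 to 387 RPKM, Calr at 282 to 351 RPKM and Hspa5 at 233 to 314 RPKM as group means. Calr and Pdia3 lay within about 1 SD of each other in most sorted groups, so their order there is not resolved. At the low end, Alg6, a glucosyltransferase of glycan assembly, was at 1.92 ± 0.388 RPKM with PTXF and 2.58 ± 0.0425 RPKM with water, and Rcn3 was the lowest member in the c-Rel-labelled stimulated group, at 0.641 ± 0.0318 RPKM. The median member was at 38.3 RPKM with PTXF, 55.9 RPKM for the c-Rel label and 55.4 RPKM with water. The RPKM of the 48 genes summed to 2694 to 3165 with PTXF, 4411 to 4648 for the c-Rel label and 3871 to 4872 with water.

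Pentoxifylline was compared with water in stimulated WT Tregs to ask what the drug changes in these cells. Most chaperones and all 6 oligosaccharyltransferase members were lower with PTXF, whereas the sensors Ern1 and Eif2ak3 and the degradation gene Edem1 were higher. Group means of log2(RPKM + 0.5) were compared with limma, and a gene was called at a Benjamini-Hochberg adjusted p under 0.05 over all 9945 genes tested, among which all 48 members were. Of the 48 members, 22 were called lower, which is 45.8% of them against 23.9% of all genes tested, and 5 were called higher, which is 10.4% against 19.6% of all genes. The members' median log2 difference was -0.43, and that of all genes was 0.0013; 34 members lay below 0 and 14 above. Because the values are shares of each library's RNA, fewer cells of a type and less RNA per cell cannot be told apart.

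**Figure D1:**
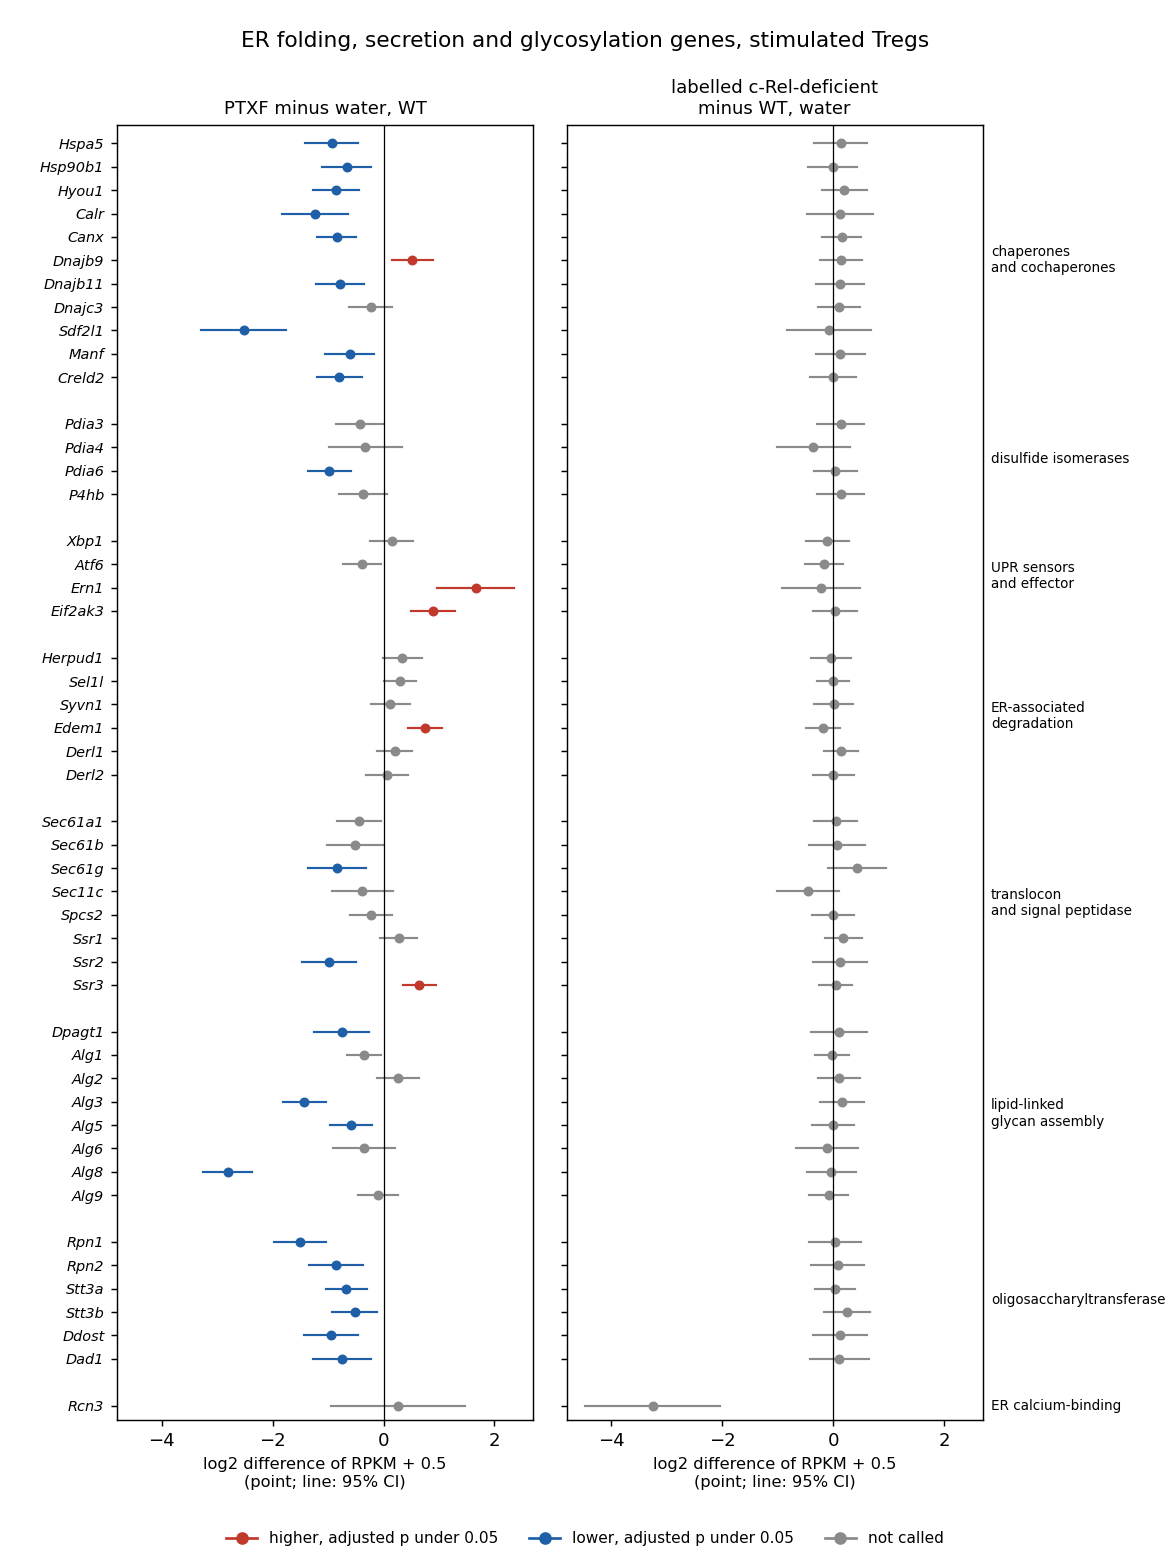
Log2 difference of each of the 48 ER genes (rows, by role) with its 95% confidence interval (line), for PTXF minus water in WT Tregs (left) and for libraries labelled c-Rel-deficient minus WT with water (right), 2 libraries per group. Blue points, called lower, number 22 on the left and red points, called higher, 5; no point is called on the right, where Rcn3 lies alone at -3.25.

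Of the 11 chaperones and cochaperones, 9 were lower with PTXF (81.8%, against 23.9% of all genes). Dnajb9 was higher (9.09%, against 19.6%) and Dnajc3 was not called. Sdf2l1, a partner of the HSP40 cochaperone ERdj3, was at 6.35 and 12.0 RPKM in PTXF libraries 1 and 2, against 40.5 and 68.7 RPKM in water libraries 1 and 2. Its log2 difference of -2.52 ± 0.32 (SE; adjusted p = 0.00147) was the largest among the chaperones. Canx, the membrane-bound lectin chaperone calnexin, was at 70.9 and 81.1 RPKM with PTXF, against 125 and 148 RPKM with water (log2 difference -0.84 ± 0.15, adjusted p = 0.00442). Hyou1, a large HSP70 relative that recharges BiP with nucleotide, was at 34.2 and 38.0 RPKM with PTXF, against 56.1 and 77.1 RPKM with water (-0.86 ± 0.17, adjusted p = 0.00737). In each of these genes both PTXF libraries lay below both water libraries.

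The abundant chaperones followed the same direction. Calr was at 204 and 303 RPKM with PTXF, against 499 and 684 RPKM with water (log2 difference -1.23 ± 0.25, adjusted p = 0.00764). Hspa5 was at 178 and 219 RPKM with PTXF, against 326 and 439 RPKM with water (-0.94 ± 0.20, adjusted p = 0.00969), a fold of 0.523. Hsp90b1, the ER form of HSP90, Dnajb11, which encodes ERdj3, and Manf and Creld2, small ER proteins induced by ER stress, were lower by log2 differences of -0.80 to -0.61. Dnajb9, which encodes ERdj4, a BiP cochaperone that holds IRE1 in check, stood apart. It was at 18.7 and 14.6 RPKM with PTXF, against 11.6 and 11.1 RPKM with water (0.52 ± 0.16, adjusted p = 0.0334). Dnajc3, an ER-luminal cochaperone of BiP, was at 22.7 and 30.0 RPKM with PTXF, against 28.6 and 32.9 RPKM with water, and the groups overlapped (adjusted p = 0.291).

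Promoters were examined for the ER stress response element, the sequence through which ATF6 and XBP1 act on chaperone genes. RefSeq promoter windows (GRCm38.p6) run from 250 bases before to 50 bases after a gene's start site and were matched by symbol for 39 of the 48 members. The element was searched on both strands as the box CCAAT, any 9 bases and the box CCACG. It was found in 8 of these 39 genes (20.5%), against 37 of all 27025 genes with a window (0.137%). The 8 were Hspa5, Hsp90b1, Calr, Canx, Dnajc3, Creld2, Pdia6 and Syvn1. With PTXF, 6 of these 8 were called lower, against 45.8% of all 48 members and 23.9% of all genes tested, and Dnajc3 and Syvn1 were not called. A match was found in 6 of 22 members called lower, 2 of 21 not called and 0 of 5 called higher. Hyou1, Manf, Ssr2 and Dpagt1, all called lower, had no matched window. With so few genes, a link between the element and the calls was not tested. The windows of the 4 called members with the lowest p are printed because they show the shared element in genes that were lower with PTXF. Capitals mark the fixed bases of the element, which on the strand shown reads reversed in Calr, as CGTGG then ATTGG. Each sequence runs 5′ to 3′ on the strand of its gene.
Pdia6, chr12:17266339-17266638, plus strand: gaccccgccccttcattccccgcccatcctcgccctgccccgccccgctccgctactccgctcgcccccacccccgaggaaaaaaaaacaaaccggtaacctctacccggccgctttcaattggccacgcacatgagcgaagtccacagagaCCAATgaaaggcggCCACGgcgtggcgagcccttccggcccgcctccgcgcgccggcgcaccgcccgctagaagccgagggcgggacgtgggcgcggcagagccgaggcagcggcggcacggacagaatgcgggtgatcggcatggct
Canx, chr11:50325624-50325923, minus strand: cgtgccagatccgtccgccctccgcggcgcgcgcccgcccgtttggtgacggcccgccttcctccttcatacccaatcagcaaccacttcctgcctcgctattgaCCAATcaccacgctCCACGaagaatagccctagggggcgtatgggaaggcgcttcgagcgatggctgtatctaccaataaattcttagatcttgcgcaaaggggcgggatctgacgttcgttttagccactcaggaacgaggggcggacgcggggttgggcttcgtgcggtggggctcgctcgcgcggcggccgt
Calr, chr8:84846882-84847181, minus strand: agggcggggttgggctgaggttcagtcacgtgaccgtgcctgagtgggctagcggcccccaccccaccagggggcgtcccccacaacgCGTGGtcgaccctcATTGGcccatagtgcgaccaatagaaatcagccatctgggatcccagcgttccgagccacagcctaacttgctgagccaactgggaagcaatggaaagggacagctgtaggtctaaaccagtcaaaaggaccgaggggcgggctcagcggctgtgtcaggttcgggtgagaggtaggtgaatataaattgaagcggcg
Hspa5, chr2:34771840-34772139, plus strand: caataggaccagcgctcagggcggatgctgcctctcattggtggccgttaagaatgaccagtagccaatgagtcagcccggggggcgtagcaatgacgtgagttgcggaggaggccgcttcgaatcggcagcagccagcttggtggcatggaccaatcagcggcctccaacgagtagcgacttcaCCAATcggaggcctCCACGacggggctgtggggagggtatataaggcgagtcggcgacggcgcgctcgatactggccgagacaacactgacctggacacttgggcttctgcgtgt
The element began 98 bases before the start site in Pdia6, 145 in Canx, 162 in Calr and 65 in Hspa5. A second form, ERSE-II, searched as ATTGG, any 1 base and CCACG (the same boxes, with CCAAT read on the other strand), was found in Dnajb11 and Herpud1, 2 of 39 members (5.13%), against 0.0444% of all genes. The XBP1 core TGACGTGG was in 0 of 39 members and 0.714% of all genes, and the cyclic AMP response element TGACGTCA, which shares its first bases TGACGT, in 0 of 39 and 2.03%. A match describes the letters in the window and was not tested for binding.

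All 4 disulfide isomerases had log2 differences below 0, and 1, Pdia6, was called lower (25.0%, near the 23.9% of all genes). Pdia6, which forms and rearranges disulfide bonds alongside BiP, was at 70.8 and 80.8 RPKM with PTXF, against 132 and 169 RPKM with water (log2 difference -0.98 ± 0.16, adjusted p = 0.00354). Pdia3 was at 178 and 225 RPKM with PTXF, against 249.9 and 289 RPKM with water, a gap that missed the threshold (-0.43, adjusted p = 0.0949). P4hb, the classical protein disulfide isomerase, differed by -0.37 (adjusted p = 0.134). Pdia4 differed by -0.33 (adjusted p = 0.370) with overlapping libraries, although the p-value in the authors' deposited table, once adjusted, is 0.0496.

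Among the unfolded protein response sensors the direction was the opposite in Ern1 and Eif2ak3. Ern1 was at 18.7 and 9.91 RPKM with PTXF, against 4.67 and 3.37 RPKM with water (log2 difference 1.66 ± 0.30, adjusted p = 0.00460), a fold of 3.16. Eif2ak3 was at 18.0 and 13.5 RPKM with PTXF, against 8.47 and 7.93 RPKM with water (0.89 ± 0.17, adjusted p = 0.00600). In both genes PTXF library 1 was the higher of the pair, and neither PTXF library came near the water libraries. Xbp1 was at 152 and 137 RPKM with PTXF, against 128 and 132 RPKM with water, and was not called (adjusted p = 0.496); gene-level values do not separate its spliced form. Atf6 was at 6.35 and 6.32 RPKM with PTXF, against 8.33 and 8.57 RPKM with water (-0.39, adjusted p = 0.0657), so the sensors did not move together.

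Genes downstream of PERK were listed as a separate pathway group. Of the 7 tested of 8, 3 were higher with PTXF (42.9%, against 19.6% of all genes) and 0 lower (0.0%, against 23.9%). Ddit3, which encodes the stress factor CHOP, was at 164 and 78.5 RPKM with PTXF, against 36.4 and 33.0 RPKM with water (log2 difference 1.70 ± 0.33, adjusted p = 0.00598). Ppp1r15a, which encodes GADD34 and restores translation, was at 100.4 and 59.8 RPKM with PTXF, against 27.2 and 27.8 RPKM with water (1.48 ± 0.24, adjusted p = 0.00298). Atf4 itself was at 463 and 259 RPKM with PTXF, against 187 and 194 RPKM with water (0.86 ± 0.27, adjusted p = 0.0366). As with Ern1, PTXF library 1 had the highest values of all 3 genes. Asns, the asparagine synthetase gene that ATF4 activates, differed by -0.19 (adjusted p = 0.602). In the group of 6 other regulators 1 was higher and 1 lower (16.7% each, against 19.6% and 23.9% of all genes). Creb3l2, a membrane-bound relative of ATF6, was higher (0.73) and Atf6b, the ATF6 paralogue, lower (-0.55), each with an adjusted p under 0.05.

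All 6 members of ER-associated degradation, which carries misfolded proteins back to the cytosol for destruction, had log2 differences above 0, from 0.066 to 0.75. Of these 6, 1 was called higher, a share of 16.7% near the 19.6% of all genes, and Syvn1 and Derl2 overlapped between the groups. Edem1, a lectin that extracts misfolded glycoproteins, was the member called. It was at 94.3 and 91.7 RPKM with PTXF, against 58.9 and 51.3 RPKM with water (0.75 ± 0.13, adjusted p = 0.00420). Herpud1 was at 73.1 and 59.2 RPKM with PTXF, against 51.4 and 52.5 RPKM with water, without passing the test (adjusted p = 0.109). Sel1l, the scaffold of the HRD1 ubiquitin ligase that Syvn1 encodes, was at 26.0 and 24.3 RPKM with PTXF, against 19.9 and 21.0 RPKM with water (adjusted p = 0.0920). Of 10 further degradation genes tested, 5 were higher (50.0%) and 1 lower (10.0%, against 23.9% of all genes). Selk, a selenoprotein of the pathway, differed by 0.79 and Ube2j1, an ER ubiquitin-conjugating enzyme, by 0.75, whereas Vcp, the ATPase that pulls proteins out of the membrane, differed by -0.49, all called.

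Among the 8 translocon and signal peptidase genes 1 was called higher (12.5%, below the 19.6% of all genes) and 2 lower (25.0%, near the 23.9%). Ssr2 and Ssr3 encode subunits of the same translocon-associated complex, TRAP, and were called in opposite directions. Ssr2 was at 42.6 and 55.6 RPKM with PTXF, against 80.3 and 116 RPKM with water (log2 difference -0.98 ± 0.21, adjusted p = 0.00890). Ssr3 was at 129 and 121 RPKM with PTXF, against 78.7 and 80.5 RPKM with water (0.65 ± 0.13, adjusted p = 0.00659). The exons of Ssr2 overlap those of Gm10704 on the other strand by 239 bases, and the library kit is not stated to keep strand. Sec61g, the small gamma subunit of the channel, was at 2.37 and 3.79 RPKM with PTXF, against 6.22 and 5.38 RPKM with water (-0.84 ± 0.22, adjusted p = 0.0202). The other channel subunits Sec61a1 and Sec61b differed by -0.44 and -0.51 and were not called (adjusted p = 0.0702 and 0.0931). Of 13 further targeting and translocation genes, 1 was higher (Sec62, 0.36) and 2 lower, Spcs1 of the signal peptidase complex (-0.71) and Ssr4 of TRAP (-0.50). These shares, 7.69% and 15.4%, are below those of all genes.

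Assembly of the lipid-linked glycan held the member with the largest difference. Alg8, which adds the second glucose to the glycan, was at 2.02 and 2.91 RPKM with PTXF, against 18.2 and 22.2 RPKM with water (log2 difference -2.81 ± 0.19, adjusted p = 0.000523), a fold of 0.142. Alg3, the enzyme that adds the first mannose on the luminal side, was at 10.1 and 10.7 RPKM with PTXF, against 24.7 and 33.4 RPKM with water (-1.43 ± 0.17, adjusted p = 0.00115). Its neighbours in the pathway did not all do the same. Alg6, which adds the first glucose, differed by -0.36 (adjusted p = 0.260), Alg9, a mannosyltransferase, by -0.10 (adjusted p = 0.606) and Alg2, a cytosolic-side mannosyltransferase, by 0.26 (adjusted p = 0.214). Alg5, which makes the glucose donor, was at 25.4 and 29.8 RPKM with PTXF, against 36.6 and 47.0 RPKM with water (-0.58 ± 0.16, adjusted p = 0.0234). Dpagt1, the first enzyme of the pathway, was also lower (-0.76 ± 0.21, adjusted p = 0.0250). Thus 4 of 8 were lower (50.0%, against 23.9% of all genes) and 0 higher (0.0%, against 19.6%). Alg8 lies on chromosome 7 at 97371606 to 97392185 (GRCm38, plus strand) and its exons overlap no other annotated gene.

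The oligosaccharyltransferase, which transfers the finished glycan to asparagine residues of the entering protein, had all 6 members called lower. Of its further subunits, which were in the N-glycosylation list, Ostc, Krtcap2, Magt1 and Tusc3 differed by -0.25, -0.30, -0.22 and -0.21 and were not called. Rpn1, the ribophorin I subunit, was at 25.4 and 35.3 RPKM with PTXF, against 74.8 and 98.3 RPKM with water (log2 difference -1.50 ± 0.20, adjusted p = 0.00165). Ddost was at 51.9 and 69.5 RPKM with PTXF, against 98.7 and 136 RPKM with water (-0.94 ± 0.21, adjusted p = 0.0100). The catalytic subunits Stt3a, which works with the translocon, and Stt3b, which modifies skipped sites, had smaller differences. Stt3a was at 70.7 and 82.0 RPKM with PTXF, against 109 and 135 RPKM with water (-0.67 ± 0.16, adjusted p = 0.0129). Stt3b was at 35.0 and 45.8 RPKM with PTXF, against 51.5 and 64.6 RPKM with water (-0.52 ± 0.18, adjusted p = 0.0466). Rpn2 and Dad1, further shared subunits, lay between, at -0.86 and -0.75.

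Beyond the members, 83 of 87 genes in 7 related pathway lists were tested, with 13 higher (15.7%) and 18 lower (21.7%). Both shares are near the 19.6% and 23.9% of all genes or below them. Of 19 other N-glycosylation genes 5 were lower, a share of 26.3% near that of all genes, and 0 higher. Mogs, the glucosidase that trims the transferred glycan first, was at 26.1 and 28.7 RPKM with PTXF, against 64.3 and 89.7 RPKM with water (log2 difference -1.46 ± 0.18, adjusted p = 0.00119), and Dolk, the dolichol kinase, differed by -0.64. In the 13 other folding and redox genes 6 were lower (46.2%), among them Fkbp11 (-1.67) and Sil1 (-1.41), a nucleotide exchange factor of BiP. There 1 was higher (7.69%), Ero1lb (0.78), an oxidase that recharges disulfide isomerases. In export from the ER 2 of 15 were higher and 3 lower (13.3% and 20.0%, both below the shares of all genes). Sec23a of the COPII coat (0.94) and the retrieval receptor Kdelr1 (0.76) were higher, and the coat subunit Sec13 (-0.90) and the cargo receptor Lman1 (-0.89) lower.

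**Figure D2:**
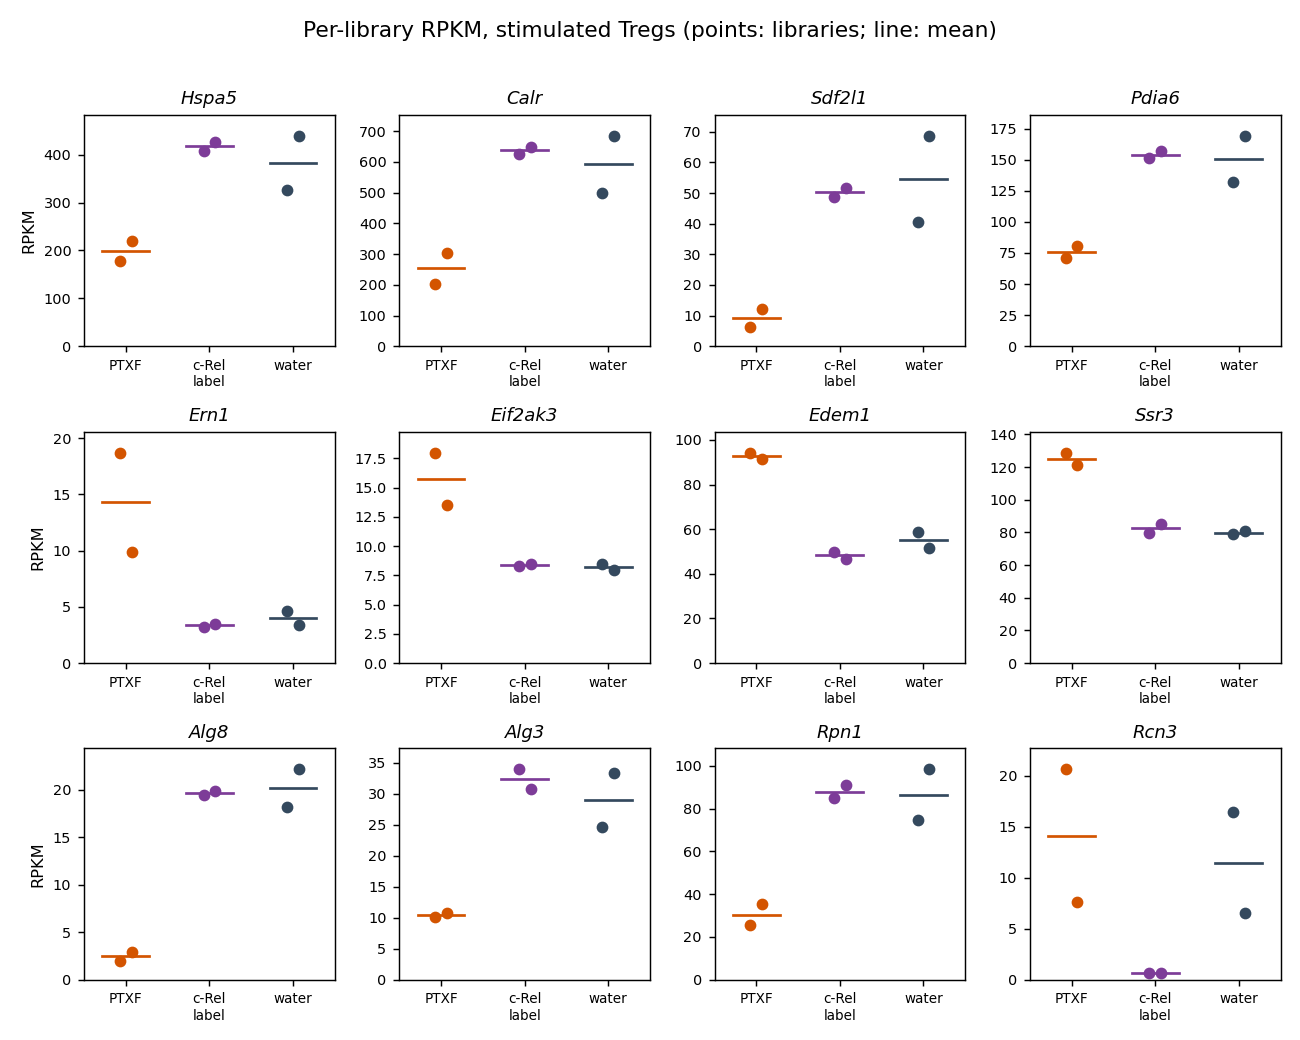
RPKM of 12 members in each stimulated library (points; short lines are group means), with PTXF, the c-Rel label and water from left to right and 2 libraries per group; each vertical axis starts at 0. For 11 of the 12 genes the PTXF libraries lie apart from the water libraries, and for Rcn3 the c-Rel-labelled libraries lie near 0.

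The lower calls depended on single libraries. Without PTXF library 1 the counts were 4 higher and 8 lower, and without water library 2 they were 4 and 10, each leaving a single library assumed to vary like the other groups; 12 of the 27 calls held in every setting tried, namely Alg3, Alg8, Canx, Creld2, Edem1, Eif2ak3, Ern1, Hyou1, Pdia6, Rpn1, Sdf2l1 and Ssr3. In the authors' deposited table, 4 members were higher (8.33%, against 9.77% of 14290 genes) and 21 lower (43.8%, against 12.9%), and 24 of these calls were shared with limma. Markers of activation state and of other cells were read in the same comparison. Of 5 markers of the resting subset 3 were higher with PTXF (60.0%, against 19.6% of all genes). Among them S1pr1, a receptor for lymph node exit, was at 329 and 349.5 RPKM with PTXF, against 88.2 and 90.5 RPKM with water (adjusted p = 0.000523). Klf2, the factor that maintains S1pr1, was at 587 and 533 RPKM with PTXF, against 153 and 142 RPKM with water (adjusted p = 0.000646). Of 5 markers of the activated subset 2 were lower with PTXF (40.0%, against 23.9% of all genes) and 0 higher, and 3 had log2 differences above 0. These 5 summed to 400 to 449 RPKM with PTXF, against 381.5 to 426 RPKM with water. Of 5 Treg markers 1 was lower (20.0%, near the 23.9% of all genes), and the other 4, Foxp3 included, were not called. The lower one was Il2ra, the IL-2 receptor alpha chain, at 313 and 451 RPKM with PTXF, against 849.9 and 842 RPKM with water. Of 9 B cell markers 5 were tested and 3 were lower (60.0%, against 23.9% of all genes), namely H2-Aa, H2-Ab1 and H2-Eb1. Cd79a (log2 difference 0.23) and Cd79b (-0.77, adjusted p = 0.0862) were not called. The 9 summed to 12.8 to 19.7 RPKM with PTXF, against 41.0 to 52.7 RPKM with water. For plasma cells, which have an expanded ER, 4 of 10 markers were in the table and summed to 8.48 to 20.6 RPKM with PTXF, against 15.7 to 22.2 RPKM with water. The part of these markers in the ER gene values was not tested.

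Cells labelled c-Rel-deficient were compared with WT cells, both stimulated, to ask whether genetic loss of this subunit resembles the drug. No member was called by limma in either direction, where the share of all 9945 genes called was 0.0% both higher and lower. Rel itself was therefore also missed by limma (log2 difference -2.69 ± 0.83, adjusted p = 0.489). In the authors' deposited table Rel was called lower (-3.38, p-value 2.9e-45 once adjusted). The absence of limma calls thus does not show that the members were unchanged. At an unadjusted p under 0.05 there were 791 genes and 1 member, Rcn3. The members' median log2 difference was 0.042, against 0.055 over all genes, with 31 members above 0 and 17 below. Alg8 differed by -0.030 (95% confidence interval -0.48 to 0.42), Rpn1 by 0.033 (-0.44 to 0.50) and Hspa5 by 0.14 (-0.34 to 0.62). Ern1 differed by -0.22 (-0.92 to 0.48). The water libraries are shared with the PTXF comparison, in which these genes differed by -2.81, -1.50, -0.94 and 1.66 in the same order.

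Rcn3 was the exception. It was at 0.619 and 0.664 RPKM in the c-Rel-labelled libraries, against 16.4 and 6.50 RPKM with water, and at 20.6 and 7.61 RPKM with PTXF. The c-Rel-labelled libraries thus lay below all 4 others, whose own replicates differed more than 2-fold. The log2 difference from water was -3.25 ± 0.52 with an adjusted p of 0.372 in limma, 0.0423 when c-Rel-labelled library 2 was left out. In the authors' deposited table it was -3.47, with a p-value of 6.67e-12 once adjusted, the single member called lower there (2.08%, against 1.66% of genes; 0.483% were higher). Markers of other cells also stood apart, though none was called by limma. The plasma cell transcript Igj was at 0.309 and 0.0255 RPKM in the c-Rel-labelled libraries and 10.3 and 15.6 RPKM with water, whereas Pou2af1 of the same list was at 27.4 and 12.1 RPKM, against 4.54 and 5.48 RPKM, and the plasma cell markers summed to 12.6 to 27.8 RPKM, against 15.7 to 22.2 RPKM. The 9 B cell markers summed to 8.77 to 9.13 RPKM, against 41.0 to 52.7 RPKM. Of these, H2-Aa was at 1.45 and 1.25 RPKM, against 13.55 and 17.6 RPKM, and H2-Ab1 and H2-Eb1 were likewise below water. Cd79b was at 4.26 and 4.53 RPKM, against 4.42 and 7.94 RPKM, and Pax5 was near 0 in both groups. The 7 myeloid markers summed to 0.869 to 0.996 RPKM, against 4.09 to 6.56 RPKM. Their part in the Rcn3 values was not tested. The exons of Rcn3 (chromosome 7, 45082913 to 45092221, minus strand) overlap those of Gm45669 on the other strand by 290 of 1717 bases.

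PTXF-treated WT cells and c-Rel-labelled cells were also compared directly. Of the 48 members 24 were lower with PTXF (50.0%, against 26.8% of all genes) and 5 higher (10.4%, against 21.6%), with a median of -0.54. This comparison shares its PTXF libraries with the one above, so the members' values are given side by side only. Alg8 differed by -2.78 here, Alg3 by -1.59, Rpn1 by -1.53 and Sdf2l1 by -2.45, while Edem1 differed by 0.94 and Ern1 by 1.88. Sec61a1 and Pdia3 were called lower here (-0.48 and -0.57, adjusted p = 0.0474 and 0.0370) but not against water. Rcn3 was higher with PTXF than in the c-Rel-labelled cells by 3.52 ± 0.52 (adjusted p = 0.00172). Between 14 and 26 members were lower when single libraries were left out, the fewest without PTXF library 1.

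Freshly sorted aTregs and rTregs were compared to ask what accompanies activation in the animal. In WT cells the ER genes differed little: 2 members were called higher in aTregs (4.17%, against 7.54% of all 10656 genes tested), Atf6 and Sel1l, and 2 lower (4.17%, against 4.68%), Rcn3 and Alg1. These shares are near the background or below it. The members' median log2 difference was 0.064, against -0.061 over all genes. Atf6 was at 7.73, 7.12 and 5.47 RPKM in WT aTregs 1 to 3, against 3.40 and 2.835 RPKM in WT rTregs, so all aTreg libraries lay above both rTreg libraries. Its log2 difference was 1.00 ± 0.19 (adjusted p = 0.0182). Sel1l was at 20.4, 19.6 and 18.1 RPKM in WT aTregs, against 11.8 and 15.8 RPKM in WT rTregs (0.49 ± 0.13, adjusted p = 0.0425).

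Rcn3 and Alg1 went the other way. Rcn3 was at 0.759, 1.13 and 1.75 RPKM in WT aTregs, against 3.94 and 2.44 RPKM in WT rTregs (log2 difference -1.12 ± 0.27, adjusted p = 0.0309). Alg1, which adds the first mannose to the glycan, was at 13.2, 12.5 and 15.3 RPKM in WT aTregs, against 21.8 and 18.0 RPKM in WT rTregs (-0.52 ± 0.12, adjusted p = 0.0306). WT aTreg 3 lay nearest to the rTregs in all 4 genes. The exons of Alg1 overlap Eef2kmt on the other strand by 472 bases. Sec11c, a catalytic subunit of the signal peptidase, was at 156, 162 and 133 RPKM in WT aTregs, against 125 and 87.1 RPKM in WT rTregs, and missed the threshold (0.52, adjusted p = 0.0704). The authors' deposited table called Atf6 and Sec11c higher (4.17%, against 7.98% of 14818 genes) and Rcn3 lower (2.08%, against 3.26%). All 4 calls rested on single libraries, and none was made when the 2 WT groups were fitted alone. None of the 4 was called without WT rTreg 1, WT aTreg 1 or WT aTreg 2, while 3 members were higher and 8 lower without WT rTreg 2, and 3 and 3 without WT aTreg 3.

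Of the chaperones, 8 of 11 lay above 0 in this comparison without a call. Hspa5 was at 287, 304 and 264 RPKM in WT aTregs, against 264 and 202 RPKM in WT rTregs, and Calr at 352, 329 and 371 RPKM, against 309 and 254 RPKM. In the pathway lists 8 of 83 genes tested were higher in aTregs (9.64%, near the 7.54% of all genes) and 1 lower (1.2%, against 4.68%). Asns was at 3.49, 3.44 and 1.71 RPKM in WT aTregs, against 0.590 and 0.199 RPKM in WT rTregs (log2 difference 1.90 ± 0.28, adjusted p = 0.00758). Trib3, a stress-induced pseudokinase, was at 0.596, 1.33 and 1.97 RPKM in WT aTregs, against 3.67 and 3.29 RPKM in WT rTregs (-1.22 ± 0.34, adjusted p = 0.0446). Of the other called genes, Sec24d of the COPII coat differed by 0.96, Creb3l2 by 0.95 and Lman1 by 0.56.

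**Figure D3:**
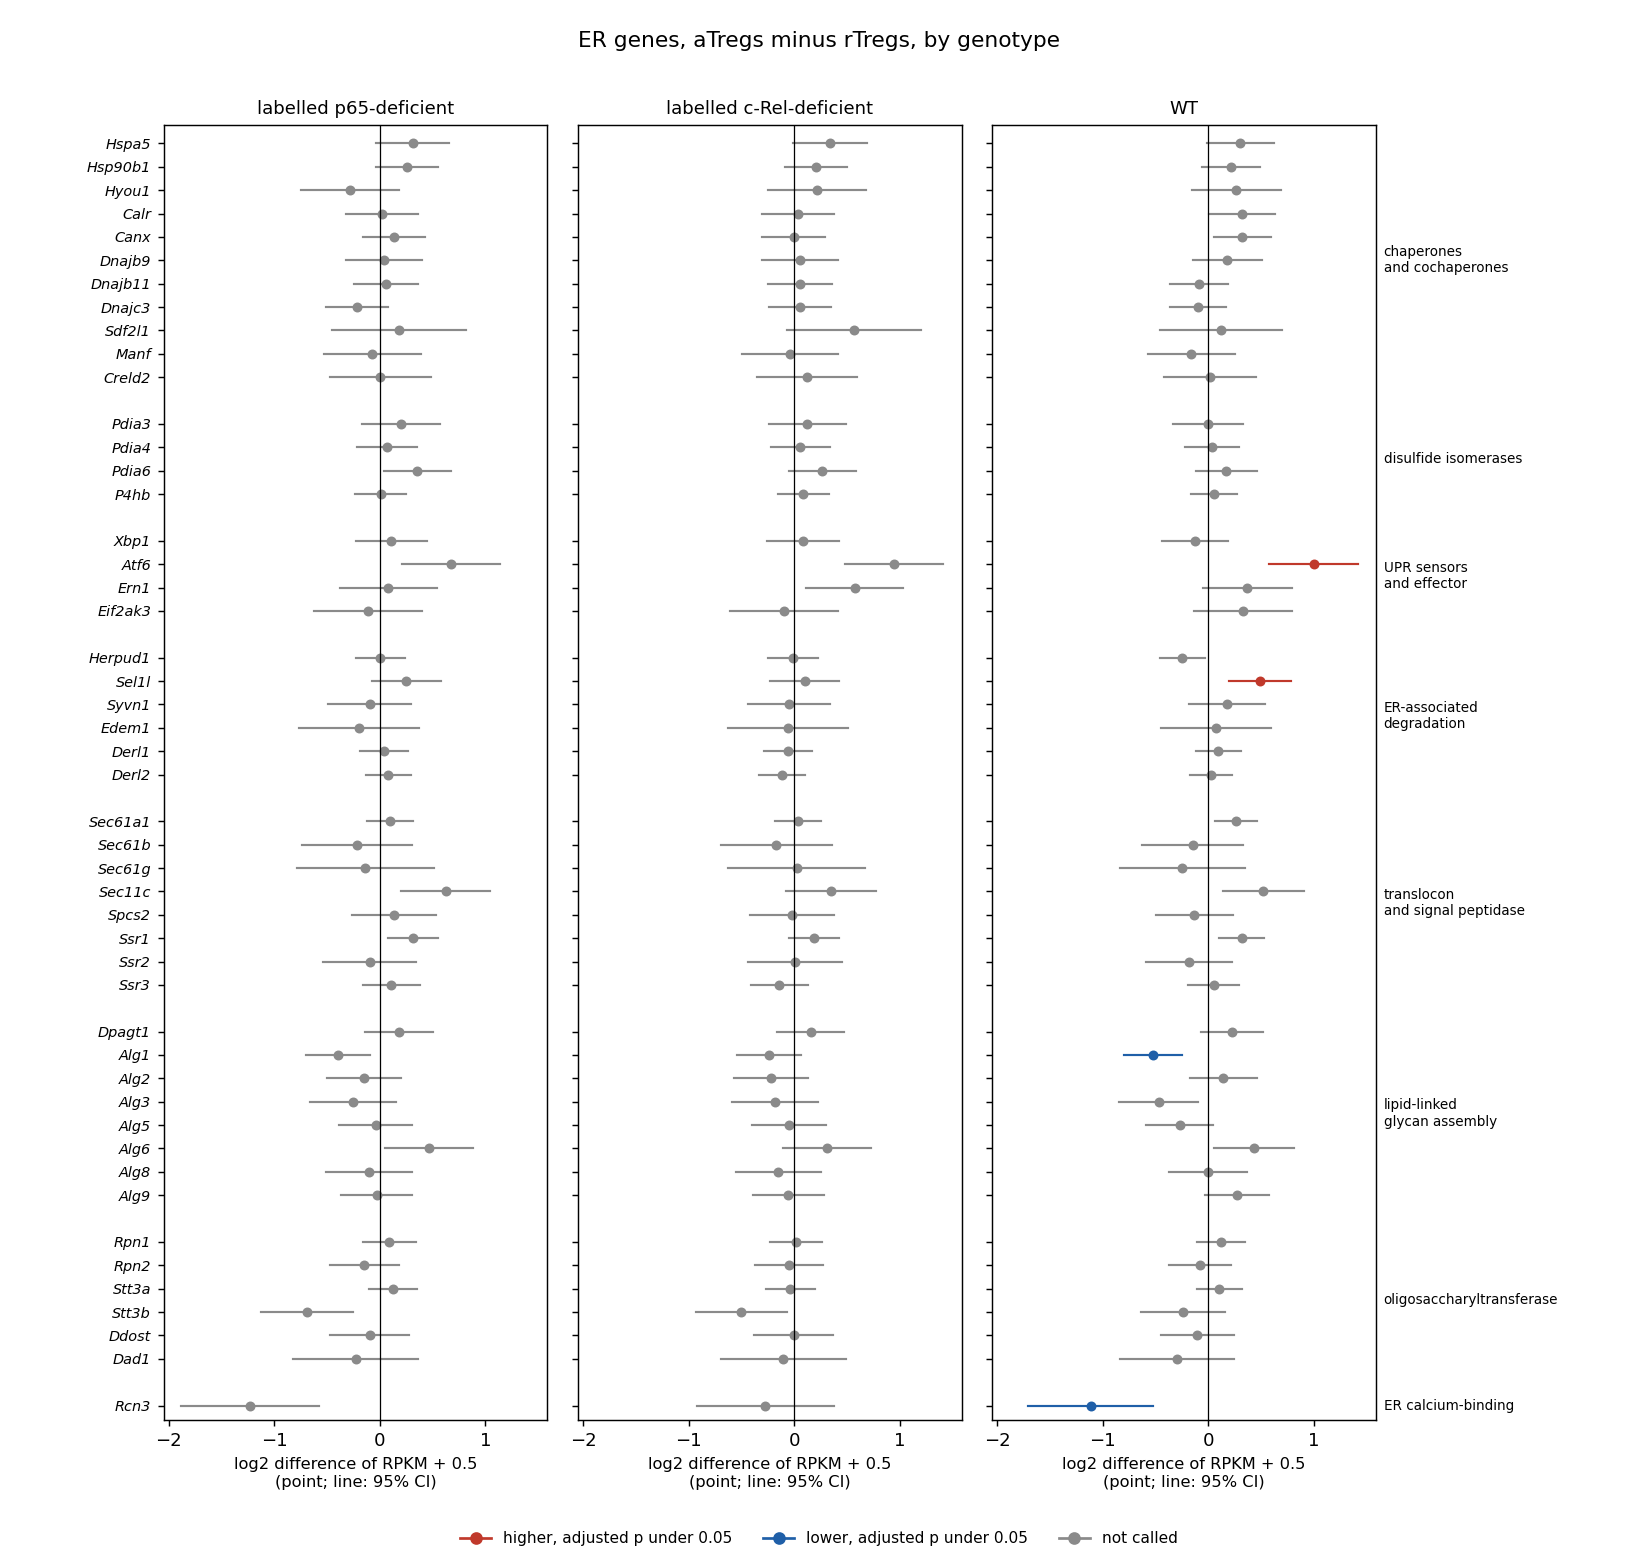
Log2 difference, aTregs minus rTregs, of each of the 48 ER genes (rows, by role) with its 95% confidence interval (line), in libraries labelled p65-deficient (left), labelled c-Rel-deficient (middle) and WT (right). Called genes are Atf6 and Sel1l (red, higher) and Rcn3 and Alg1 (blue, lower), all in WT.

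The subsets were compared within each deficient genotype as well. In p65-labelled cells no member was called, where 2.79% of all genes were higher and 0.385% lower, and 8 members had an unadjusted p under 0.05. Rcn3 was at 0.952 and 0.960 RPKM in p65-labelled aTregs, against 2.69 and 3.16 RPKM in p65-labelled rTregs (log2 difference -1.23 ± 0.29, adjusted p = 0.0517). Stt3b was at 44.0 and 43.5 RPKM in these aTregs, against 74.9 and 67.0 RPKM in these rTregs (-0.69 ± 0.20, adjusted p = 0.0808). Atf6 was at 7.14 and 7.12 RPKM, against 4.26 and 4.28 RPKM (0.68 ± 0.21, adjusted p = 0.102). These 3 were picked as the members with the largest differences. The 2 groups did not overlap in them, nor in many other members, such as Pdia6 and Ssr1. All 3 passed the threshold when only the p65-labelled groups were fitted (adjusted p = 0.0142 for Rcn3, 0.0174 for Stt3b and 0.0189 for Atf6). The share of all genes called in that fit is not given here, and the same kind of fit lost the WT calls.

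In c-Rel-labelled cells 0.0% of all genes were called in either direction by limma, no member among them, with 1494 genes and 3 members at an unadjusted p under 0.05. Atf6 was at 8.25 and 5.38 RPKM in c-Rel-labelled aTregs, against 3.64 and 2.85 RPKM in c-Rel-labelled rTregs (log2 difference 0.95 ± 0.21, adjusted p = 0.179). Ern1 was at 3.88 and 2.40 RPKM in these aTregs, against 2.03 and 1.76 RPKM in these rTregs (0.57 ± 0.21, adjusted p = 0.261). Rcn3 was at 1.69 and 2.50 RPKM in these aTregs, against 2.26 and 2.97 RPKM in these rTregs, and the groups overlapped. Atf6 thus lay above the matched rTregs in every aTreg library of all 3 genotypes, although its call was made in WT alone. It was singled out for its differences in these same libraries, so the separation is not independent evidence. The share of all genes without overlap is not given here.

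**Figure D4:**
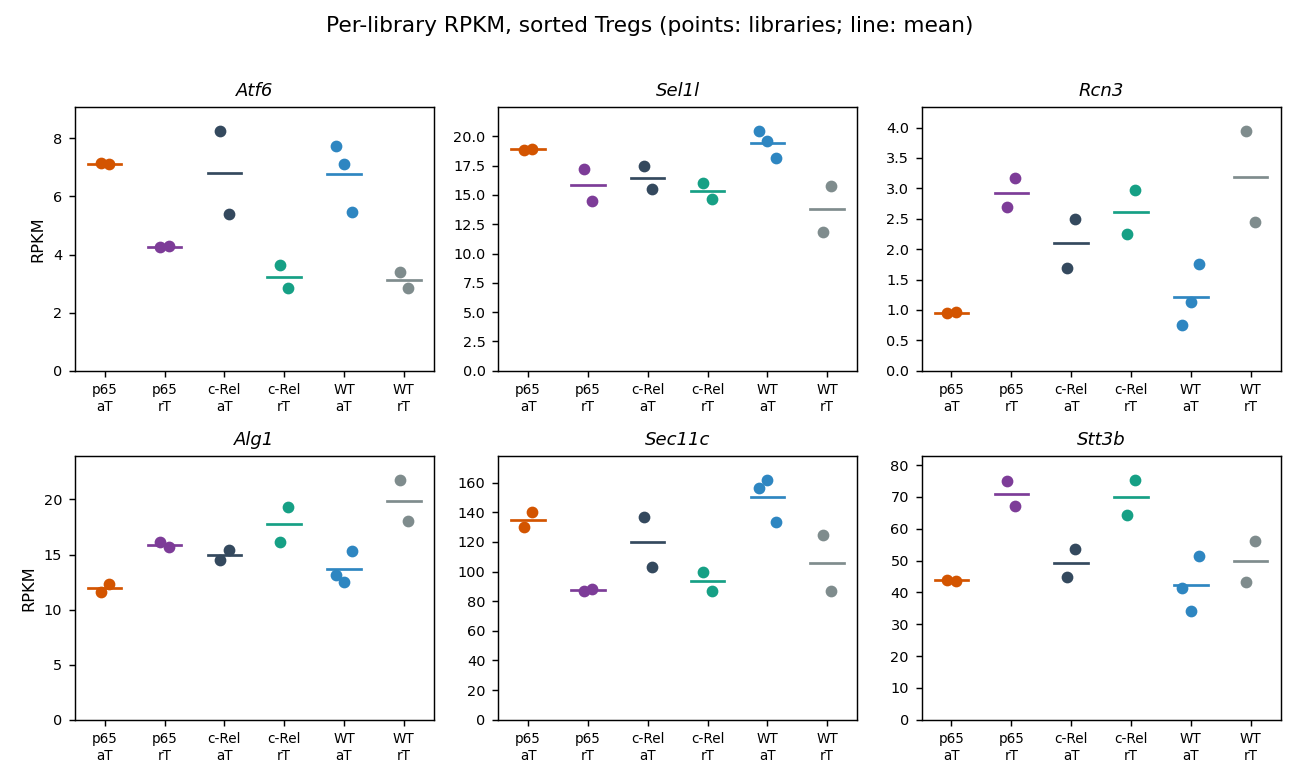
RPKM of 6 members in each sorted library (points; short lines are group means), by genotype label with aTregs (aT) left of rTregs (rT) and WT at the right; each vertical axis starts at 0. Atf6 lies higher in every aTreg library than in any rTreg library, with aTregs between 5.38 and 8.25 RPKM and rTregs between 2.835 and 4.28 RPKM.

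Loss of an NF-kB subunit was asked about within each subset. No member was called in any of the 4 comparisons of a deficient label with WT: limma called 0.0% of the 10656 genes higher and 0.0% lower in each. Rel was thus missed by limma too, as in c-Rel-labelled rTregs (log2 difference -2.22 ± 0.46, adjusted p = 0.627). The authors' deposited table called Rel lower in c-Rel-labelled rTregs and aTregs. At an unadjusted p under 0.05 there were 726 genes and 3 members for p65-labelled rTregs, 775 and 2 for c-Rel-labelled rTregs, 365 and 1 for p65-labelled aTregs, and 717 and 1 for c-Rel-labelled aTregs. The authors' deposited table also called no member in these 4 comparisons, with 0.0337% of genes higher and 0.0% lower in p65-labelled rTregs, 0.0135% and 0.0135% in c-Rel-labelled rTregs, 0.0675% and 0.128% in p65-labelled aTregs, and 0.398% and 0.121% in c-Rel-labelled aTregs. The members' median log2 differences were 0.078, 0.040, 0.027 and 0.034 in the same order.

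The members with the largest differences there remained small and not called. Stt3b was at 74.9 and 67.0 RPKM in p65-labelled rTregs and 64.4 and 75.3 RPKM in c-Rel-labelled rTregs, against 43.4 and 56.3 RPKM in WT rTregs (log2 differences 0.52 and 0.49, adjusted p = 0.697 and 0.681). The 4 deficient-label values exceeded both WT values. The WT rTregs are shared by the 2 comparisons. Eif2ak3 was at 7.18 and 9.31 RPKM in c-Rel-labelled rTregs, against 5.04 and 6.76 RPKM in WT rTregs (0.45, adjusted p = 0.705). In aTregs, Alg9 was at 8.47 and 8.32 RPKM in p65-labelled cells, against 11.5, 10.7 and 10.4 RPKM in WT cells (-0.35, adjusted p = 0.998). Rcn3 was at 1.69 and 2.50 RPKM in c-Rel-labelled aTregs, against 0.759, 1.13 and 1.75 RPKM in WT aTregs (0.62, adjusted p = 0.702), and the groups overlapped. Marker sums of other cells in these c-Rel-labelled aTregs were 68.7 to 122 RPKM for 9 B cell markers, against 17.3 to 42.1 RPKM in WT aTregs, and 12.6 to 24.1 RPKM for 7 myeloid markers, against 2.00 to 6.91 RPKM; their part in the Rcn3 values was not tested.

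Whether the difference between aTregs and rTregs itself depended on genotype was tested as an interaction. limma called 0.0% of genes, and no member, for either label (237 genes and 0 members at an unadjusted p under 0.05 for p65, 497 and 0 for c-Rel). For Atf6 the aTreg difference in p65-labelled cells minus that in WT cells was -0.32 (95% confidence interval -0.95 to 0.31), and in c-Rel-labelled cells minus WT it was -0.051 (-0.68 to 0.58). Rcn3 had the largest such value for c-Rel, 0.84 (-0.04 to 1.73, adjusted p = 0.898), and Hyou1 the largest for p65, -0.54 (-1.17 to 0.08, adjusted p = 0.998). These intervals are wide against the differences themselves, so a dependence on genotype was not detectable for these genes at this number of libraries.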

How the data were processed

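Each set came as a table in which the authors deposited RPKM values per library beside log2 fold changes and p-values of their own comparisons, with decimal commas. STAR, the mm10 build and DESeq2 (version 1.10.1) are named in the submitters' processing notes, and strand handling is not given in the sources used here. Sorted-set RPKM had been adjusted in an undescribed way: 2.54% of values were negative (none of a member), and 15883 values were identical between same-numbered libraries, against 0 between differently numbered ones. Here negative values became 0 and log2(RPKM + 0.5) was used, so fold changes of low genes are understated. Genes at 1 RPKM or more in 2 libraries were tested, two-sided, with limma 3.58.1 in R 4.3.3 (group means, contrasts, eBayes with trend), each set separately with a variance shared by all its groups, and Benjamini-Hochberg adjustment. The deposited p-values were adjusted likewise. Coordinates and exon overlaps come from the GENCODE annotation of GRCm38. Members, lists and tests were chosen with earlier results of these data known. Full values were given for up to 3 called members per role with the lowest p, with none called for those with the largest differences, and for up to 2 called genes per pathway list and direction; further members were added after their values were seen. On simulated data the PTXF comparison recovered 52% of genes changed by a log2 value of 1 and 85% of those changed by 2, over 9832 genes. Some marker genes are not reported here.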

Additional observations from a re-analysis of the deposited data

How the results depend on the processing

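The counts of members called with PTXF against water kept within 1.5 times of 5 higher and 22 lower under pseudocounts of 0.1 and 1, no filter (4 and 16), a minimum of 3 RPKM, scaling by medians of ratios, a fit with robust variance, a fit of the compared groups alone (5 and 21), the replicate block (5 and 22) and the authors' deposited table. Leaving out single libraries gave 8 to 24 lower with a median of -0.661 to -0.365, 14 to 26 lower for PTXF against the c-Rel label, and for the c-Rel label against water 0 to 1 lower with a median of -0.0762 to 0.203; the deposited table also called 1 lower there. For WT aTregs against rTregs the ranges were 0 to 3 higher, 0 to 8 lower and -0.0349 to 0.163; 1 was higher with no filter, 0 and 0 were called with only the groups compared, and the deposited table called 1 lower. For p65-labelled aTregs against rTregs, 1 higher and 2 lower were called with the replicate block and without both libraries numbered 3 (chosen after seeing the data), 2 and 3 with only the groups compared, and 0 to 2 lower without single libraries. For the c-Rel label, 1 higher was called with the replicate block and without both libraries numbered 3, and 0 to 1 without single libraries. Medians without single libraries ran from -0.0729 to 0.21 for p65-labelled and from -0.14 to 0.183 for c-Rel-labelled against WT rTregs, and from -0.156 to 0.135 and -0.157 to 0.107 for the p65 and c-Rel interactions. Without both libraries numbered 3 the median was 0.11 for c-Rel-labelled against WT aTregs and 0.0979 for the c-Rel interaction. Sdf2l1, not called in either, turned to 0.15 in c-Rel-labelled against WT rTregs and to -0.0551 in the c-Rel interaction without WT rTreg 1, with ranges of -0.867 to 0.15 and -0.0551 to 0.962 over single libraries left out. The cause of these shifts was not tested. The replicate numbers were not taken to pair samples: same-numbered libraries deviated together with correlations of 0.402 for PTXF and water, -0.0653 for the c-Rel label and water and 0.115 for PTXF and the c-Rel label, and of -0.379 to 0.442 in the sorted set. Same-numbered PTXF and water libraries were also alike in Xist and Ddx3y, so they may share a source, which only the replicate block takes into account. On simulated data, 2-fold changes were recovered in 52% of genes in the PTXF comparison and 77% in that of WT aTregs with rTregs, and 4-fold changes in 85% and 97%, so changes of these sizes can be missed.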
